A study of Mus musculus with 14 samples.

Results

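The natriuretic peptide system was followed through 7 genes: the peptide genes Nppa, Nppb and Nppc, the receptor genes Npr1, Npr2 and Npr3, and Corin, which encodes a processing protease. They were chosen by name from the 56941 genes of the deposited mouse table, and all 7 passed the filter on low counts that left 19145 genes for testing. The table holds bulk RNA-seq counts of aortic valve leaflets from 14 wild type male C57BL/6J mice, which were 8 weeks old at the start and all received Breslow Western Diet. The 4 Ctrl mice were untreated. The 2 LY mice received LY272015, which blocks the serotonin receptor HTR2B, at 3 mg/kg. The 4 AngII mice received angiotensin II by osmotic pump at 1000 ng/kg/min for 28 days, and the 4 AngII+LY mice received both agents. According to the series text, pumps were taken out and the AngII and AngII+LY mice were kept for another 48 hours, whereas the study's methods give this for a part of them only, so which valves were taken after the infusion had ended is not settled here. The labels of 1 LY mouse and 3 AngII+LY mice carry compound numbers other than LY272015, and their groups were taken from the sample titles.

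Natriuretic peptides are hormones that lower blood pressure and restrain growth and fibrosis of cardiovascular tissue. Nppa encodes atrial natriuretic peptide, made chiefly by atrial cardiomyocytes, and Nppb encodes the B-type peptide, made by atrial and ventricular cardiomyocytes and induced by wall stretch. Nppc encodes the C-type peptide of endothelial and connective tissue cells. NPR1 is the guanylyl cyclase receptor of the first pair and NPR2 that of the C-type peptide, and both raise cyclic GMP in the target cell. NPR3 binds all of these peptides and clears them, and Corin cleaves the atrial precursor to the active hormone.

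The libraries held 20990655 to 73128220 counts, and the smallest belonged to AngII 4. The lowest count of any member in any library was 298, so counting error is small beside the spread between mice. Values are counts divided by the TMM library size relative to its mean (normalized counts). In whole leaflets, fewer cells of a type and less RNA per cell cannot be told apart. The defining markers of valve interstitial, endothelial and cardiomyocyte cells were all detected in every group, with 0 of the 7, 10 and 12 genes of these lists at 0. Ctrl 2 and AngII+LY 4 stood apart from the other 12 libraries by 5 atrial cardiomyocyte markers (Myl7, Myl4, Sln, Bmp10 and Kcnj3). Their summed normalized count was 410938.0 in Ctrl 2 and 373665.8 in AngII+LY 4, against 61131.9 in LY 1, the next highest, and 4652.2 to 30670.2 in the remaining libraries. Differences of Nppa, Nppb and Corin are therefore given with and without these 2 libraries. Mitochondrial genes took 4.0 to 9.76% of counts in Ctrl and LY libraries and 9.83 to 25.5% in those of infused mice.

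Nppb and Nppa lie in tandem on the plus strand of chromosome 4 (GRCm39), Nppb at 148069859 to 148071662 and Nppa at 148085091 to 148086583, with 13428 bases between them. Sequence before their start sites is shown because both genes are known targets of cardiac transcription factors. It was taken from the RefSeq promoter table (GRCm38.p6) and located in GRCm39 by an exact match. Capitals mark matches on either strand to GATAA (GATA factors), TCACACC (T-box factors), TNAAGTG (NKX2-5) or CATTCC (the M-CAT element of TEAD factors).
Nppa, chr4:148084929-148085090, plus strand, from 250 to 89 bases before the RefSeq start: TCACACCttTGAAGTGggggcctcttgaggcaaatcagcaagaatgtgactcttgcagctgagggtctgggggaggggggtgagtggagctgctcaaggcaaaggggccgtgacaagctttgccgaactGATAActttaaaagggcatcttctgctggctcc
Nppb, chr4:148070252-148070278, plus strand, from 105 to 79 bases before the RefSeq start: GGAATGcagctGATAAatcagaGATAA
The Nppa stretch stops at the first GENCODE exon, and the Nppb stretch lies before the RefSeq start but inside the first exon of the longer GENCODE transcripts. Over the 250 bases before the start, GATAA occurred at 2 places in each of Nppa and Nppb and at 0 in the other 5 members. It was present in 23.0% of 27025 RefSeq promoter windows of this length. TCACACC (3.31% of windows) and TNAAGTG (10%) occurred in Nppa alone among the members, and CATTCC (12.6%) in Nppb alone. The letters TATAAA of the TATA box motif occurred in Nppa, Nppb and Nppc and in 13.0% of windows. The match began 9 bases before the RefSeq start in Nppa and 31 bases before it in Nppb. These matches describe the letters only and were not tied to any measured binding.

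Compared per kilobase of annotated exon, the 3 peptide genes had the highest levels in Ctrl valves. The length is the union of all annotated exons, 1019 to 1133 bases for the peptide genes and 7224 to 12430 for the receptors. Shorter transcripts in use would raise the receptor values, so the order holds for these lengths only. The median normalized count per kilobase was 2227.0 for Nppc, 2081.6 for Nppa and 1395.9 for Nppb, and the ranges of these neighbours overlapped. The receptors followed with 459.4 for Npr2, 412.4 for Npr1 and 334.1 for Npr3, and Corin was lowest with 138.2. The lowest Nppb value, 765.8 per kilobase, lay above the highest Npr2 value of 506.6. On this scale peptides and receptors thus did not overlap, whereas each neighbouring pair among the receptors did. Corin overlapped Npr3 only through Ctrl 2, where it reached 601.3. In AngII+LY valves the order of the medians was different, with Nppb at 8058.4, Nppa at 4860.7 and Nppc at 3777.9 per kilobase, then Npr3 at 564.1, Npr2 at 283.5, Npr1 at 237.4 and Corin at 233.6.

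**Figure D1:**
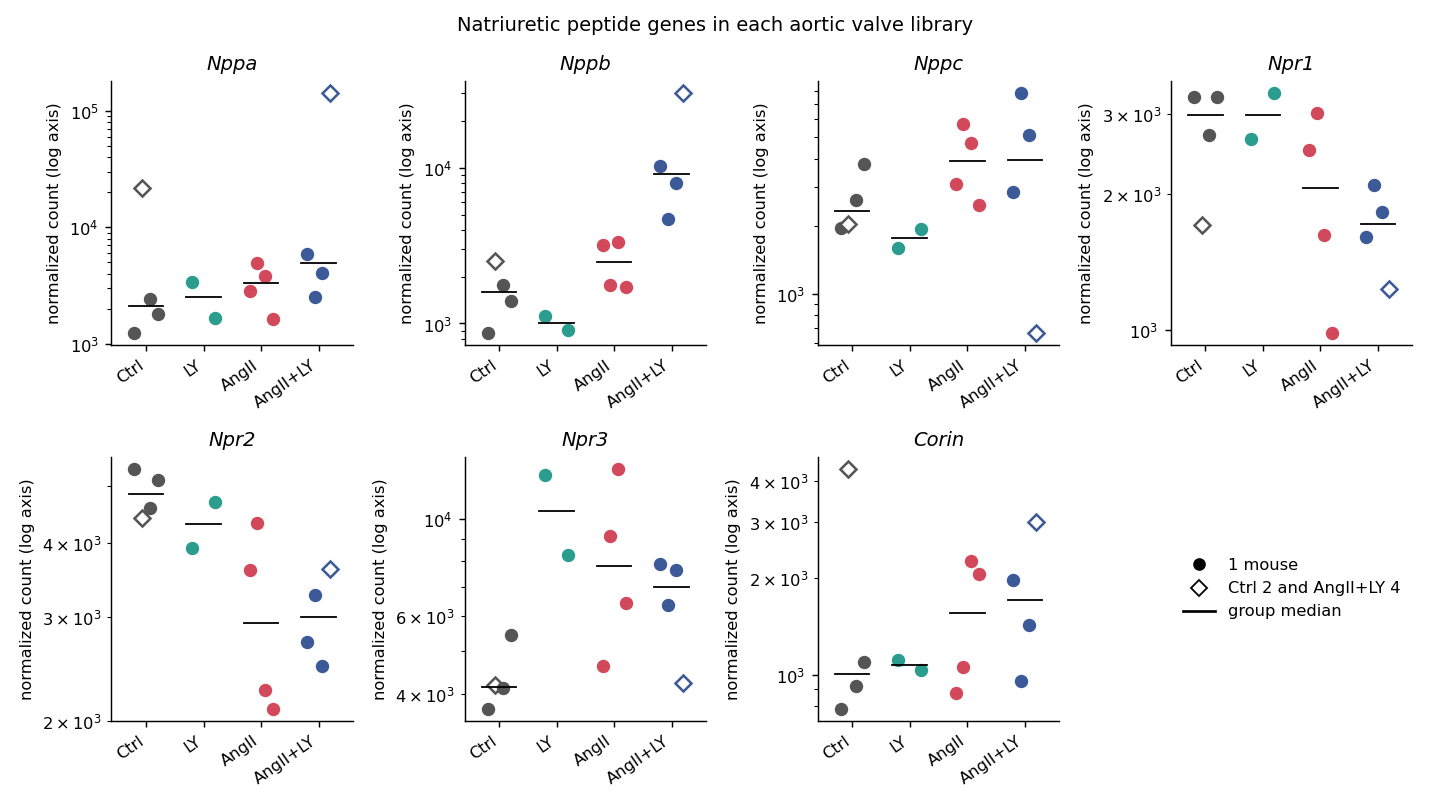
Normalized counts (log axes) of the 7 genes in each of the 14 mice by group, with the group median as a line; open diamonds are Ctrl 2 and AngII+LY 4. All 4 AngII+LY mice lie above every other mouse for Nppb, and all 8 infused mice lie below every Ctrl mouse for Npr2.

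Nppb (ENSMUSG00000029019), a load-responsive gene of cardiomyocytes, separated AngII+LY mice from all others. Its normalized counts were 867.6, 2526, 1771 and 1392 in Ctrl mice 1 to 4 and 1117 and 901.2 in LY mice. They were 3167, 1763, 3332 and 1717 in AngII mice and 10252.5, 4686, 8008 and 30088 in AngII+LY mice. Every AngII+LY mouse stood above each of the other 10 mice, while AngII and Ctrl mice overlapped. The difference was 2.41 on the log2 scale (SE 0.51) against AngII, a 5.31-fold higher level, with an edgeR adjusted p of 0.0588. Against Ctrl it was 3.02 (SE 0.52), 8.09-fold, with an edgeR adjusted p of 0.106. Neither passed the threshold of 0.05, and the exact permutation test gave p = 0.0286 for both, the smallest that 4 mice against 4 allow (0.2 after Benjamini-Hochberg adjustment over 28 tests).

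Without Ctrl 2 and AngII+LY 4, the Nppb difference was 1.62 against AngII and 2.51 against Ctrl, with unadjusted edgeR p of 0.000403 and 2.24e-05. When each mouse was left out in turn, it ranged from 1.61 to 2.72 against AngII, and the adjusted p from 0.041 without AngII 1 to 0.143. DESeq2's Wald test placed both differences past the threshold, with adjusted p of 0.000113 and 2.58e-07. AngII alone gave a difference of 0.61 from Ctrl (SE 0.48, edgeR adjusted p = 0.459), which was 0.89 without the 2 libraries (unadjusted p = 0.0232, adjusted p = 0.21). LY alone gave one of -0.70 (SE 0.61, adjusted p = 1), and -0.41 without Ctrl 2. The LY effect with AngII exceeded that without AngII by 3.11 (SE 0.82), with an unadjusted p of 0.00189 and an edgeR adjusted p of 0.295.

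Cardiomyocyte markers were higher along with Nppb in AngII+LY mice, and were mixed between AngII and Ctrl mice. The 12 cardiomyocyte markers were Myh6, Tnnt2, Tnni3, Actc1, Myl3, Mybpc3, Ttn, Ryr2, Atp2a2, Pln, Ckm and Mb. Compared with AngII mice, all 12 were higher in AngII+LY mice, by a median of 1.33 on the log2 scale. Of these, 8 had an unadjusted p under 0.05, as did 22.5% of all tested genes, and 0 passed after adjustment. Ctrl valves spanned 410496.1 to 1787359.4 in the summed normalized count of the 12 markers, LY valves 843890.0 to 1065245.1, AngII valves 419730.2 to 1144340.1 and AngII+LY valves 1027404.5 to 2683365.2. The sum of 3 ventricular markers (Myl2, Irx4 and Hand1) spanned 197472.7 to 304031.3 in AngII+LY mice and did not overlap the 67165.2 to 176464.1 of AngII mice. Among single tested genes, 11.1% showed no overlap between these groups, and such a share is not given for sums.

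**Figure D2:**
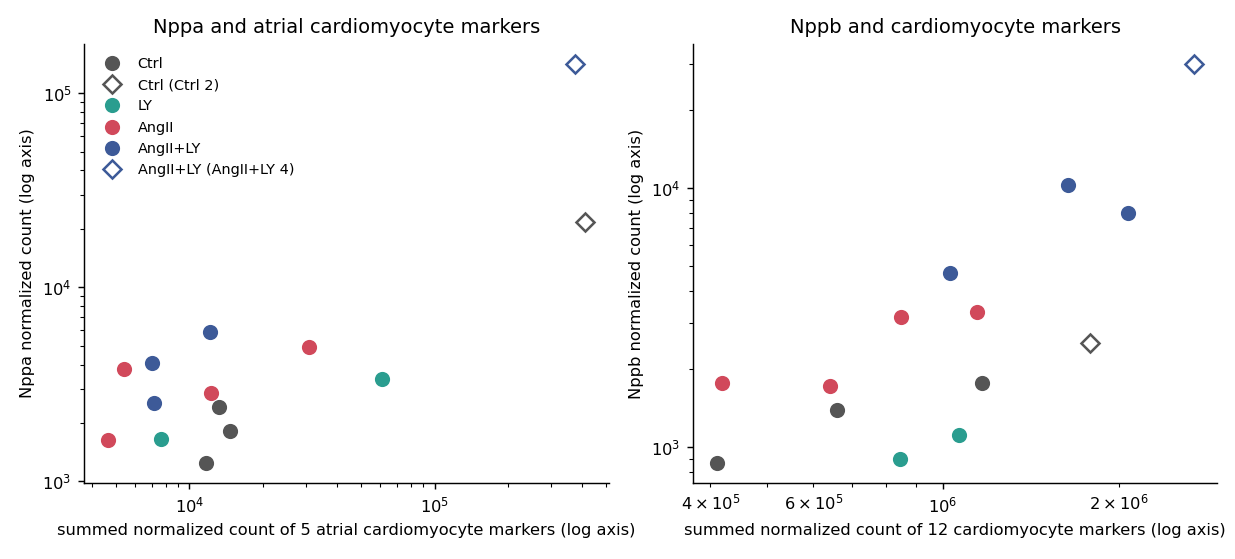
Each point is 1 mouse on log axes: left, Nppa against the summed normalized count of 5 atrial markers, and right, Nppb against that of 12 cardiomyocyte markers. Ctrl 2 and AngII+LY 4 (open diamonds) have similar atrial sums but Nppa levels of 21710.0 and 141583.5, and the AngII+LY mice are highest for Nppb.

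Nppb was therefore also expressed per 1000 counts of the 12 cardiomyocyte markers. The ratio was 2.11, 1.41, 1.52 and 2.11 in Ctrl mice, 1.05 and 1.07 in LY mice, 3.73, 4.2, 2.91 and 2.68 in AngII mice and 6.26, 4.56, 3.87 and 11.2 in AngII+LY mice. On this scale every infused mouse lay above every mouse without AngII, and AngII and AngII+LY mice overlapped. AngII exceeded Ctrl by 0.92 on the log2 scale and AngII+LY exceeded Ctrl by 1.75, each with an exact permutation p of 0.0286 (0.171 after adjustment over 12 tests). The ratio of AngII+LY mice was 0.84 higher than that of AngII mice (exact permutation p = 0.0571, adjusted 0.229), where the unscaled normalized counts differed by 2.12. For LY against Ctrl the difference was -0.73 (exact permutation p = 0.133, where 0.0667 is the smallest that 2 mice against 4 allow). Without Ctrl 2 and AngII+LY 4 the ratio differed by 0.81 for AngII and 1.34 for AngII+LY against Ctrl, by 0.53 between AngII+LY and AngII and by -0.84 for LY against Ctrl. AngII and Ctrl mice still did not overlap (exact permutation p = 0.0286), nor did AngII+LY and Ctrl mice (exact permutation p = 0.1, the smallest that 3 mice against 3 allow). The sum reflects atrial and ventricular cells together, and the part of cell content in the Nppb levels was not tested beyond this ratio.

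**Figure D3:**
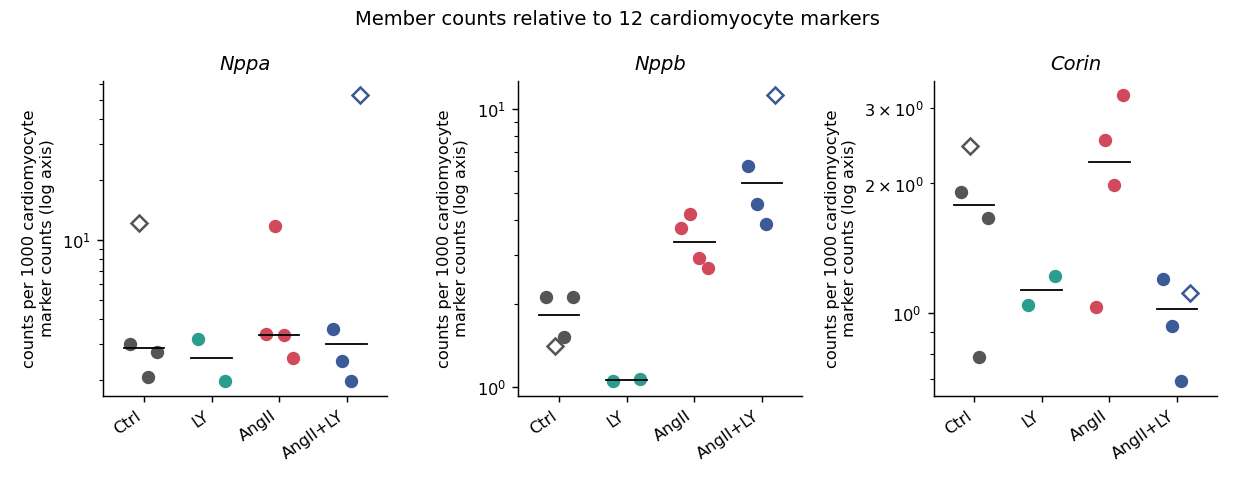
Counts of Nppa, Nppb and Corin per 1000 counts of 12 cardiomyocyte markers (log axes) in each mouse, with group medians; open diamonds are Ctrl 2 and AngII+LY 4. The Nppb ratio is 2.68 to 11.2 in the 8 infused mice and 1.05 to 2.11 in the other 6.

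Nppa (ENSMUSG00000041616), the atrial peptide gene, was dominated by the 2 libraries rich in atrial markers. Its normalized counts were 1242, 21710.0, 2420.2 and 1822 in Ctrl, 3388 and 1659 in LY, 2869, 4904, 3814 and 1641 in AngII, and 5853, 2534, 4053 and 141583.5 in AngII+LY mice. Outside Ctrl 2 and AngII+LY 4 the range was 1242 to 5853. There the lowest AngII+LY mouse (2534) lay just above the highest Ctrl mouse (2420.2), and every other pair of groups overlapped. The fitted difference between AngII+LY and AngII was 3.54 (SE 1.27, unadjusted p = 0.0146, edgeR adjusted p = 0.128), and it was 0.32 without those libraries. AngII+LY against Ctrl gave 2.50 (SE 1.22, adjusted p = 0.479), which became -0.71 without AngII+LY 4 and 1.18 (unadjusted p = 0.0176) without both. AngII against Ctrl turned from -1.04 to 0.86 without Ctrl 2, and LY against Ctrl from -1.43 to 0.47. DESeq2 returned no p for Nppa in these comparisons.

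The 2 libraries also differed from each other. Nppa had 5.28 counts per 100 counts of the 5 atrial markers in Ctrl 2 and 37.9 in AngII+LY 4. In the other libraries this ratio ran from 5.54 to 21.6 in Ctrl and LY mice and from 16.0 to 70.4 in infused mice, a comparison chosen after the values were seen and not tested. Per 1000 cardiomyocyte marker counts Nppa was 52.8 in AngII+LY 4, 12.1 in Ctrl 2, 11.7 in AngII 2 and 1.96 to 3.57 in all other mice, and no group difference passed (exact permutation p from 0.657 to 0.857). Without the 2 libraries the AngII+LY ratio differed by -0.73 from AngII, and the AngII ratio by 0.73 from Ctrl (exact permutation p of 0.371 and 0.314). In normalized counts Nppa stood at 1.31 to 8.59 times Nppb in Ctrl mice and at 1.84 to 3.03 times in LY mice. It stood at 0.906 to 2.78 times Nppb in AngII mice and at 0.506 to 4.71 times in AngII+LY mice. The medians were 1.4, 2.44, 1.05 and 0.556 in this order. The highest Ctrl and AngII+LY values were those of Ctrl 2 and AngII+LY 4.

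Corin (ENSMUSG00000005220, chromosome 5 from 72457290 to 72661924), the protease that activates pro-atrial natriuretic peptide, also peaked in the 2 atrial-rich libraries. Its normalized counts were 782.6, 4381, 921.6 and 1093 in Ctrl, 1109 and 1032 in LY, 876.7, 1058, 2264 and 2061 in AngII, and 1973, 957.6, 1431 and 2982 in AngII+LY mice. Groups overlapped throughout, and edgeR differences lay between -0.75 (SE 0.67, LY against Ctrl) and 0.23 (SE 0.53, AngII+LY against AngII), with adjusted p of 0.841 or more. Without Ctrl 2 and AngII+LY 4 they were 0.74 for AngII and 0.64 for AngII+LY against Ctrl, with unadjusted p of 0.0561 and 0.111, -0.10 for AngII+LY against AngII and 0.20 for LY against Ctrl. Per 1000 cardiomyocyte marker counts, Corin was 1.03 to 3.21 in AngII mice, and it was 0.691 to 1.2 in AngII+LY mice, a difference of -1.07 on the log2 scale (exact permutation p = 0.0857, adjusted 0.257) and of -1.13 without AngII+LY 4.

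Nppc (ENSMUSG00000026241, chromosome 1 from 86594013 to 86598301), the endothelial and connective tissue peptide, showed no separation of groups with 4 mice. Its normalized counts were 1967, 2047, 2630 and 3779 in Ctrl, 1605 and 1941.5 in LY, 3087, 5699, 4731 and 2478 in AngII, and 2831, 7873, 5102 and 665.7 in AngII+LY mice. Both LY mice lay under the lowest Ctrl mouse, which stood at 1967. AngII+LY 4, highest for Nppa and Nppb, was the lowest of all 14 mice for Nppc. Differences from Ctrl were 0.62 (SE 0.52, edgeR adjusted p = 0.481) for AngII and 0.66 (SE 0.52, adjusted p = 0.694) for AngII+LY. The latter was 1.02 without AngII+LY 4 (unadjusted p = 0.014) and 0.16 without AngII+LY 2. The 10 endothelial markers had summed normalized counts of 96739.4 to 193757.7 in Ctrl mice, 125842.0 to 178397.3 in AngII mice and 98408.3 to 205736.4 in AngII+LY mice.

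Npr2 (ENSMUSG00000028469, chromosome 4 from 43631339 to 43651436), the receptor of the C-type peptide, was lower in every infused mouse than in every Ctrl mouse. Normalized counts were 5355, 4414.5, 4596 and 5117 in Ctrl and 3934 and 4702 in LY mice, against 3607, 4324, 2254 and 2094.5 in AngII and 2719, 3274, 2481 and 3612 in AngII+LY mice. The difference from Ctrl was -0.66 (SE 0.23, unadjusted p = 0.0107, edgeR adjusted p = 0.102) for AngII and -0.69 (SE 0.23, unadjusted p = 0.00862, adjusted p = 0.307) for AngII+LY. Both reached the smallest exact permutation p, 0.0286 (0.2 after adjustment). DESeq2 gave adjusted p of 0.0344 and 0.115. AngII+LY and AngII mice differed by -0.02 (SE 0.22, adjusted p = 0.967). AngII 3 and AngII 4, the lowest mice, had the highest mitochondrial shares (24.7 and 25.5% of counts). The AngII difference was -0.30 without them and -0.31 when libraries were corrected for the GC content of genes (unadjusted p of 0.143 and 0.103), and that of AngII+LY was -0.45 after the correction (unadjusted p = 0.0231).

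Npr1 (ENSMUSG00000027931, chromosome 3 from 90356458 to 90373748), the guanylyl cyclase receptor of the atrial and B-type peptides, was lower on average in both infused groups, with wider overlap. Normalized counts were 3268, 1702, 2699 and 3259 in Ctrl, 2641 and 3333 in LY, 2499.8, 3006, 1619.9 and 986.0 in AngII, and 1606.5, 2088, 1824 and 1231 in AngII+LY mice. Ctrl 2 was the lowest Ctrl mouse and fell among the AngII+LY mice. AngII+LY against Ctrl gave -0.70 (SE 0.31, unadjusted p = 0.0428, edgeR adjusted p = 0.434) and AngII against Ctrl -0.43 (SE 0.31, adjusted p = 0.415). With the GC correction these were -0.42 (unadjusted p = 0.153) and 0.02 (unadjusted p = 0.949).

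Valve interstitial or fibroblast markers moved with the receptors in part. All 7 of that list were lower in AngII+LY than in Ctrl mice, 5 at an unadjusted p under 0.05 (background 11%), with a median of -0.86. Their summed normalized count spanned 222869.1 to 391978.5 in AngII+LY and 392476.1 to 773072.1 in Ctrl mice. In AngII mice, whose Npr2 counts overlapped those of AngII+LY mice, the sum was 606987.9 to 691638.6. All 8 adipocyte markers were lower in AngII than in Ctrl mice, 5 at an unadjusted p under 0.05 (background 25.2%). Their sum was 20243.2 to 47595.8 against 44799.7 to 57845.0. In AngII+LY mice this sum was 45362.1 to 68188.2. There 7 of the 8 markers were lower than in Ctrl mice and 1 was higher, with 3 of the lower ones at that p (background 11%). The part of cell content in the receptor levels was not tested.

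Npr3 (ENSMUSG00000022206, chromosome 15 from 11839982 to 11907373), the clearance receptor, stood above the Ctrl range in both LY mice. Normalized counts were 3700.4, 4184.5, 4122 and 5444 in Ctrl, 12556 and 8270.0 in LY, 4639, 9158, 12994 and 6446 in AngII, and 7900.5, 6358, 7666.5 and 4226 in AngII+LY mice. AngII 1 and AngII+LY 4 fell within the Ctrl range, and the other 6 infused mice lay above it. LY against Ctrl differed by 1.26 (SE 0.35, 2.39-fold, unadjusted p = 0.00289, edgeR adjusted p = 1), with an exact permutation p of 0.0667, the smallest possible. AngII against Ctrl differed by 0.93 (SE 0.30, 1.90-fold, unadjusted p = 0.00739, adjusted p = 0.0897) and AngII+LY against Ctrl by 0.58 (SE 0.30, adjusted p = 0.496). DESeq2 called the AngII difference (adjusted p = 0.0165), as did edgeR without AngII 1 (adjusted p = 0.033). Without AngII 3, the mouse with the most Npr3, it was 0.63 (adjusted p = 0.221), and without AngII 3 and AngII 4 it was 0.66 (unadjusted p = 0.0549). The LY effect with AngII was lower than that without AngII by -1.60 on the log2 scale (SE 0.46, unadjusted p = 0.0036, edgeR adjusted p = 0.295). The GC correction left the AngII, LY and AngII+LY differences from Ctrl at 0.85, 1.28 and 0.78.

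**Figure D4:**
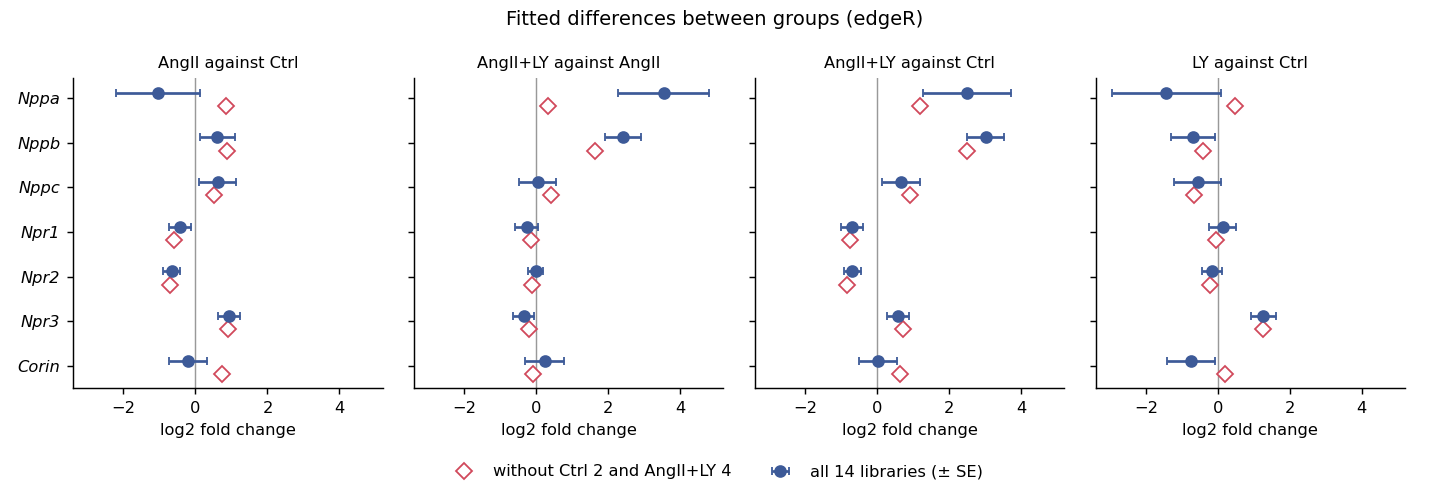
Fitted log2 fold changes of the 7 genes in the 4 comparisons (filled circles, bars are the standard error) and the same values without Ctrl 2 and AngII+LY 4 (open diamonds). Nppa moves most between the fits, from 3.54 to 0.32 for AngII+LY against AngII, while Npr2 lies between -0.83 and -0.66 in both fits for AngII and for AngII+LY against Ctrl.

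Counted over the family, 0 of 7 members passed an adjusted p under 0.05 with an absolute log2 fold change above 0.5 in edgeR, and 0% of all tested genes did so in each of the 5 comparisons. At an unadjusted p under 0.05, 2 members differed between AngII and Ctrl mice, Npr3 higher and Npr2 lower, where the background was 25.2% of tested genes. Between AngII+LY and AngII mice there were 2, Nppa and Nppb, both higher, with a background of 22.5%. The comparison of AngII+LY with Ctrl had 3, Nppb higher and Npr1 and Npr2 lower, with a background of 11%. For LY against Ctrl there was 1, Npr3, with a background of 1.39%, and for the difference between the LY effects there were 3, Nppa, Nppb and Npr3, with a background of 13.3%. Groups did not overlap for 1 member between AngII and Ctrl (Npr2, background 15%), 1 between AngII+LY and AngII (Nppb, 11.1%), 2 between AngII+LY and Ctrl (Nppb and Npr2, 8.16%) and 2 between LY and Ctrl (Nppc and Npr3, 12%). DESeq2 called 2 members for AngII against Ctrl (Npr2 and Npr3, background 13.9%), Nppb alone in both comparisons of AngII+LY (10.9% with AngII and 1.79% with Ctrl) and 2 for the difference between the LY effects (1.06%), the last being Nppb and Npr3. The median log2 fold change of the 7 members was -0.20, 0.04, 0.58 and -0.56 for AngII against Ctrl, for AngII+LY first against AngII and then against Ctrl, and for LY against Ctrl. That of all tested genes was -0.06, -0.02, -0.02 and -0.03.

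The cardiomyocyte load and fetal program list holds 8 genes that, like Nppb, are known to be induced by wall stress. In AngII+LY against Ctrl, 5 of 8 were higher at an unadjusted p under 0.05 (background 11%) and 0 after adjustment, with a list median of 1.59. Against AngII 3 of 8 were higher (median 1.21, background 22.5%) and in AngII against Ctrl 2 of 8 (median 0.36, background 25.2%), while 0 were lower at that p in any of these. The 12 cardiomyocyte markers were all higher in AngII+LY than in Ctrl mice too, 6 at an unadjusted p under 0.05 (background 11%, median 0.94). Their part in these levels was not tested. Acta1, skeletal alpha-actin, had 5059.9 to 34615.4 normalized counts in Ctrl mice, 24165.6 to 92104.4 in AngII mice and 30487.2 to 159632.5 in AngII+LY mice. Its difference from Ctrl was 2.82 (SE 0.68, edgeR adjusted p = 0.199) for AngII+LY and 1.58 (SE 0.65, adjusted p = 0.15) for AngII. Xirp2, an actin-binding protein of intercalated discs, was above the Ctrl range in every infused mouse, by 1.92 (SE 0.45, adjusted p = 0.0574) for AngII and 2.18 (SE 0.46, adjusted p = 0.177) for AngII+LY. Myh7, the slow myosin heavy chain, had 22421.4 normalized counts in AngII+LY 4 and 183.9 to 4829.0 elsewhere, and its difference between AngII+LY and AngII was 2.90 with that library and 1.30 without it and Ctrl 2. Ccn2, a matricellular protein, and Fhl1, a LIM protein of muscle, differed by -0.57 and -0.40 between AngII+LY and AngII, with adjusted p of 0.443 and 0.585.

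**Figure D5:**
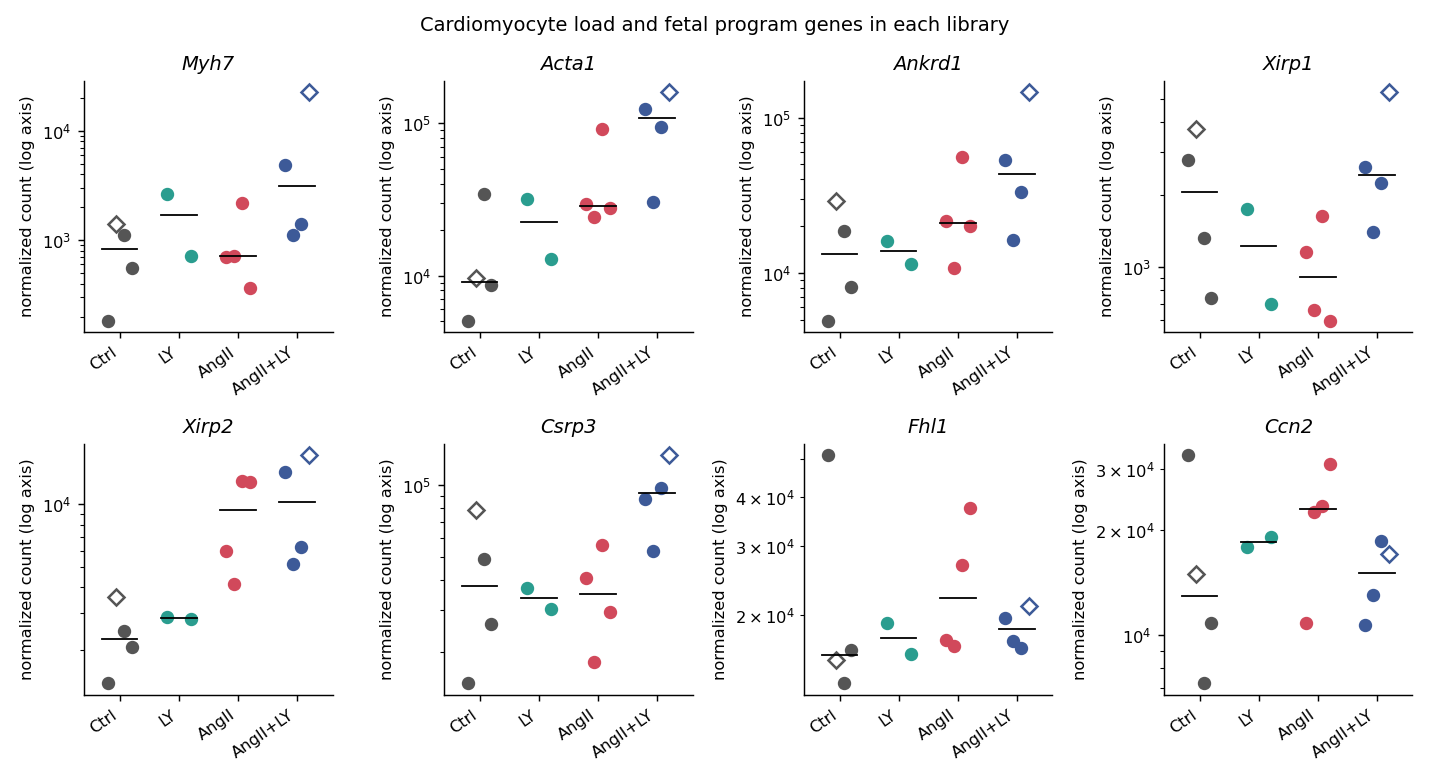
Normalized counts (log axes) of the 8 load and fetal program genes in each mouse, with group medians; open diamonds are Ctrl 2 and AngII+LY 4. AngII+LY 4 is the highest of all mice for Myh7, Acta1, Ankrd1, Xirp1, Xirp2 and Csrp3, and every infused mouse exceeds the highest Ctrl value of 3580.6 for Xirp2.

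Of 12 transcription factors known to act on Nppa and Nppb, 0 were called. Between AngII+LY and AngII mice, 3 were higher and 1 lower at an unadjusted p under 0.05 (background 22.5%). Nkx2-5 was higher by 1.51 (SE 0.55, edgeR adjusted p = 0.133), Srf by 1.05 (SE 0.34, adjusted p = 0.104) and its coactivator Myocd by 2.19 (SE 0.69, adjusted p = 0.0966), whereas Tbx20 was lower by -1.12 (SE 0.29, adjusted p = 0.0662). Against Ctrl, AngII mice were higher for 1 of the 12 and lower for 2 at that p (background 25.2%). The lower ones were Srf (-0.98, SE 0.34, adjusted p = 0.106) and Myocd (-2.10, SE 0.69, adjusted p = 0.0933). All 5 smooth muscle markers were also lower there at an unadjusted p under 0.05 (background 25.2%, median -3.31). Their sum was 438260.8 in Ctrl 1, 68283.2 in Ctrl 2, 11377.1 and 11819.0 in Ctrl 3 and Ctrl 4 and 11346.0 to 21342.9 in AngII mice, so only the first pair stood above the AngII range, and the Myocd difference was -1.61 without Ctrl 1. Between AngII+LY and AngII, all 5 smooth muscle markers (median 1.76, 1 at an unadjusted p under 0.05) and all 12 cardiomyocyte markers (median 1.33) were higher. The smooth muscle sum was 89044.5 in AngII+LY 2 and 82620.7 in AngII+LY 4. In AngII+LY 1 and AngII+LY 3 it was 12693.8 and 14401.5, within the AngII range. The part of smooth muscle cells and cardiomyocytes in the Srf and Myocd levels was not tested. Gata4, a factor that binds the GATA motif, differed by -0.37 for AngII against Ctrl, by -0.22 for AngII+LY against AngII and by -0.59 for AngII+LY against Ctrl, with adjusted p of 0.526, 0.748 and 0.565. The 5 neighbours of Nppa and Nppb on chromosome 4 had 0 members at an unadjusted p under 0.05 in any of the 4 comparisons.

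Downstream of the receptors, 15 of 16 genes of cyclic GMP synthesis, response and breakdown were tested, and Pde2a was too low. In AngII+LY against AngII 13 of 15 were lower, 3 of them at an unadjusted p under 0.05, and 1 was higher at that p (background 22.5%), with a median of -0.45. All 7 valve interstitial or fibroblast markers were lower in this comparison, 5 at an unadjusted p under 0.05 (median -0.95), all 12 cardiomyocyte markers were higher (median 1.33), and their part in these levels was not tested. Gucy1a2, a soluble guanylyl cyclase subunit that makes cyclic GMP in response to nitric oxide, had 111.7 to 175.4 normalized counts in AngII, 22.56 to 44.49 in Ctrl and 10.98 to 23.04 in AngII+LY mice. It was higher in AngII than in Ctrl mice by 1.98 (SE 0.52, edgeR adjusted p = 0.0611, 1.07 after the GC correction) and it was lower by -3.28 (SE 0.55, adjusted p = 0.0568, -2.50 after the correction) when AngII+LY was compared with AngII. Prkg1, the cyclic GMP-dependent protein kinase, differed by 0.97 (SE 0.39, adjusted p = 0.145) and -1.34 (SE 0.39, adjusted p = 0.0846) in the same comparisons. The phosphodiesterase gene Pde1a differed by -1.23 (SE 0.27, adjusted p = 0.0588) between AngII+LY and AngII mice. Vasp, a substrate of that kinase, was 0.51 higher (SE 0.19, adjusted p = 0.136) there and 0.18 higher after the GC correction.

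Of 6 genes for processing and clearance of the peptides, all were tested and 0 passed the adjusted threshold. Ide, the insulin-degrading enzyme, was higher in AngII than in Ctrl mice by 0.57 (SE 0.26, unadjusted p = 0.0488, edgeR adjusted p = 0.196). Dpp4 differed by -1.01 (SE 0.42, adjusted p = 0.176) between AngII+LY and AngII mice and by 1.09 (SE 0.49, adjusted p = 1) between LY and Ctrl mice, where it was 0.40 without LY 1 and 1.55 without LY 2. Furin, a convertase of the B- and C-type precursors, and Mme, the peptide-degrading neprilysin, differed by -0.50 (SE 0.28) and 0.18 (SE 0.43) between AngII and Ctrl mice, with adjusted p of 0.276 and 0.839. Ostn, which encodes a peptide ligand of NPR3, differed by 0.97 (SE 1.01) in that comparison, with an adjusted p of 0.58.

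The genes with the most similar pattern over the 14 libraries were ranked by Pearson's r of log2(normalized count + 1) among 14942 other protein-coding genes, as a description. The 14 libraries differ in cell content and depth, and the part of these in the correlations was not tested. For Nppb the top 5 were Mrpl57 and S100a1 (both r = 0.918), Rbp7, Mrpl33 and Mt1 (r from 0.903 to 0.905), and for Nppa they were Slc30a9, Myl1, Fsaf1, Cntn2 and Alpl (0.884 to 0.896). Without Ctrl 2 and AngII+LY 4 the Nppa values were 0.528 to 0.831 and the Nppb values 0.869 to 0.932. Corin was closest to Atp2a2, the calcium pump of the sarcoplasmic reticulum (0.932), Kcnj3, Akap6, E2f6 and Myl1. Nppc was closest to Procr and Ecscr, both endothelial surface proteins (0.879), then Pop4, Ccdc88c and Tlnrd1. Npr1 was closest to Ext1, Ctsk, Lgmn, Sez6l and Nkd1 (0.931 to 0.947) and Npr2 to Trim3, Lztr1, Crispld2, Myoc and Pdgfrb (0.942 to 0.952), the last being the platelet-derived growth factor receptor of mesenchymal cells. Npr3 was closest to Cyp1b1, Ednrb, Ppip5k2, Cited2 and Zfp1007 (0.795 to 0.846).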

How the data were processed

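Bulk RNA-seq of aortic valve leaflets from 14 mice was analysed, with groups taken from the sample titles. Per the study's methods and labels, reads were checked with FastQC 0.12.1, trimmed, aligned to GRCm39 with HISAT2 and counted per gene with featureCounts; the annotation and the strand setting are not given in the sources used here. The authors deposited 1 table under a name that announces normalized counts; its values are all whole and library totals differ widely, so they were treated as raw counts. DESeq2 is named in the submitters' processing notes.

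Symbols came from GENCODE vM39 (618 genes, 0.0361% of counts, unmatched). Genes averaging 10 or more counts were fitted with edgeR 4.0.16 (R 4.3.3; TMM, quasi-likelihood, 1 fit of 4 groups). A gene was called when its log2 fold change exceeded 0.5 in size and its Benjamini-Hochberg adjusted p lay under 0.05; SE is the log2 fold change over the square root of F. Exact 2-sided permutation tests used log2(normalized count + 1), and marker ratios used raw counts. Python 3.11.15 and DESeq2 1.42.0 were used besides. The fit was tested on simulated data.

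Members, gene lists and tests were chosen with earlier results of these data known. Genes were named as members, as members of described lists, or as the 5 protein-coding genes with the highest Pearson's r. Without strand, reads of genes opposite a member cannot be told apart from its own; such genes held at most 4.27% of a member's count in any library. Replicates are separate mice. No pairing of mice by replicate number was seen: the deviations of same-numbered mice had a mean correlation of -0.0177 over 18 pairs, and 0 exceeded 0.1. Such correlations cannot exclude a weak pairing. Alternatives were DESeq2, its size factors, no filter, only the groups compared, other quasi-likelihood options, a replicate block, a GC correction, mitochondrial genes left out, other marker sums and each mouse left out. Leaving out Ctrl 2 with AngII+LY 4, or AngII 3 with AngII 4, was added after the data were seen.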

Additional observations from a re-analysis of the deposited data

Results flagged for a closer look

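Of 21 member and group combinations with 4 mice, 3 held a mouse far from the others by Dixon's criterion (0.829 for 4 values). The criterion was applied to unlogged normalized counts and assumes normally distributed values. No chance rate is therefore given, and log2 values were not tested in this way. Nppa was 21710.0 normalized counts in Ctrl 2 (gap over range 0.942) and 141583.5 in AngII+LY 4 (0.976), and Corin was 4381 in Ctrl 2 (0.914). Both libraries are also the highest in atrial markers, and the part of this in the values was not tested.

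The effect of LY differed between mice with and without AngII at an unadjusted p under 0.05 for 3 members, and for none after edgeR's adjustment over all genes. The difference of the log2 effects was 4.97 for Nppa (adjusted p = 0.339), 3.11 for Nppb (adjusted p = 0.295) and -1.60 for Npr3 (adjusted p = 0.295). Without Ctrl 2 and AngII+LY 4 these were -0.14, 2.03 and -1.42.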

How the results depend on the processing

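With 4 mice a group, and 2 in LY, precision was set by the spread between mice, since every member had at least 298 counts in each library. Of 721 recomputed values for 35 member differences, 670 kept their direction and side of the threshold, 11 passed the threshold that edgeR's fit had missed, 0 lost it and 40 turned in direction. The 11 were differences of Nppb, Npr2 and Npr3. Of the other genes described, Gucy1a2, Pde1a, Srf and Xirp2 passed the threshold in at least 1 comparison without AngII 1, and Myocd without Ctrl 4.

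Counts of called genes depended on the test. Where edgeR called 0 genes, DESeq2's Wald test called 2663 for AngII against Ctrl, 2082 and 343 for AngII+LY against AngII and Ctrl, 21 for LY against Ctrl and 203 for the difference between LY effects. Without the filter the first 3 counts were 123, 1 and 13, and the newer quasi-likelihood version of edgeR gave 556 and 176 in the first 2. Leaving out 1 mouse gave 0 to 1725 for AngII against Ctrl (1725 without AngII 1, 805 without Ctrl 4 and 382 without AngII 2), 0 to 844 for AngII+LY against AngII (844 without AngII 1) and 0 to 3 for AngII+LY against Ctrl. The last comparison gave 4 without both atrial-rich libraries, 61 without AngII 3 and AngII 4 and 1 with the GC correction and replicate block together. The cause was not tested.

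Replicate numbers did not pair the mice. With the replicate block edgeR called 0 genes, and Nppb differed by 2.21 between AngII+LY and AngII mice (adjusted p = 0.11).

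Several differences turned in sign. Without both atrial-rich libraries, Nppa was 0.86 for AngII and 0.47 for LY against Ctrl, with a difference of LY effects of -0.14, and Corin was 0.74 and 0.20 in the same comparisons, -0.10 for AngII+LY against AngII and -0.30 for the difference of LY effects. With 1 mouse left out, Nppa ranged from -1.39 to 0.86 for AngII against Ctrl, -0.71 to 4.40 for AngII+LY against Ctrl and -2.04 to 0.47 for LY against Ctrl, and Corin from -0.45 to 0.74, -0.30 to 0.98 and -0.99 to 0.20, and from -0.10 to 0.48 for AngII+LY against AngII. Nppa turned without Ctrl 2 for AngII and for LY against Ctrl, and without AngII+LY 4 for AngII+LY against Ctrl. Per cardiomyocyte marker, Nppa ranged from -0.31 to 0.73 for AngII against Ctrl, -0.73 to 0.85 for AngII+LY against AngII and -0.56 to 1.09 for AngII+LY against Ctrl, lowest without AngII 2 in the first and without AngII+LY 4 in the others. Without both atrial-rich libraries the last 2 were -0.73 and 0.00. The GC correction with the block put Nppa at 0.00 and Vasp at 0.12 for AngII against Ctrl, and the GC correction alone put Vasp at 0.11, Npr1 at 0.02 and the Npr2 difference of LY effects at -0.08. Without AngII 3 and AngII 4 the last 2 were 0.01 and -0.22. For AngII+LY against AngII, Nppc was -0.09 with the block, with GC correction and block, and without AngII 3 and AngII 4, and -0.46 to 0.40 with 1 mouse left out. Npr2 was 0.02 there with only the groups compared, 0.01 with the block and -0.17 to 0.19 with 1 mouse left out. For LY against Ctrl, Npr1 was -0.11 with the block, -0.04 without the atrial-rich libraries and -0.05 to 0.29 with 1 mouse left out.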
